A study of Mus musculus with 35 samples.

Results

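Sterol synthesis and cholesterol handling in the mouse hypothalamus are described here through 36 genes, taken by name from the 49568 gene names of the count tables. The rule named them by function and used no measured value, though the members were chosen with earlier results of these data known. They are 20 enzymes (8 of the mevalonate pathway and 12 from squalene to sterol), 5 genes of sterol sensing, 6 of the liver X receptor (LXR) and efflux group, and 5 of storage, transport and turnover. All 36 passed the filter on low counts that left 18063 genes to be tested.

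The samples were polyA RNA libraries of dissected hypothalamus from male mice of strain B6/J, all collected at Zeitgeber time 16, that is 16 h after lights-on. The control genotype had free access to food in 10 samples and 16 h without food in another 10. Mice carrying PER2-S662D, a form of the clock protein PER2 in which a phosphorylated serine is replaced by aspartate, gave 5 fed and 5 fasted samples. The label Per2 ko was given to 5 samples, all fasted. The ages, what the controls carry, and how either Per2 allele was made and is driven are not given in the sources used here. The labels do not state that each library is a separate animal, so p-values measure the spread between these samples.

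Neurons and glia of the adult brain make their own cholesterol, since the blood-brain barrier keeps out lipoprotein cholesterol, and myelin-forming oligodendrocytes use much of it. Acetyl-CoA is turned into mevalonate, isoprenoid units, squalene and then sterols. SREBP transcription factors switch on this synthesis when SCAP brings them to the Golgi, and INSIG proteins hold them back when sterols are plentiful. LXR receptors sense oxysterols and induce exporters such as ABCA1 and ABCG1, and APOE carries the exported lipid between cells.

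Several sets of libraries stood apart. Depth was 17959586 to 37027342 assigned counts per library. Library numbers in the file headers form separate ranges for controls 1 to 5, the labelled knockout, controls 6 to 10 and S662D. Neither mutant genotype can therefore be told apart from its range of library numbers. Within controls 1 to 5, fed libraries are numbered 121 to 125 and fasted ones 126 to 130. Controls 6 to 10 run from 141 to 145 fed and 146 to 150 fasted, and S662D from 171 to 175 and 176 to 180. Feeding state cannot be told apart from library number within these sets either. Of the 10 S662D libraries, 6 (replicates 2, 3 and 4 in both feeding states) carry an additional final digit in that number, whose meaning is not stated. The libraries labelled Per2 knockout held 30.3 CPM of Per2 on average, against 29.0 CPM in fasted controls (adjusted p 0.935), so a loss of Per2 counts was not seen there. S662D libraries held 18.7 (fed) and 19.9 CPM (fasted). Markers of the labelled tissue were present, with 11 hypothalamic genes summing to 533 to 767 CPM. Thalamus and telencephalon markers (6 genes) were present too, at 352 to 556 CPM, among them Prkcd at 335 to 534 CPM. Of 7 pituitary markers, Gh, Prl and Pou1f1 had medians of 0 CPM, Cga 0.10, Lhb 0.53, Tshb 1.74 and Pomc 18.95. Choroid plexus markers (7 genes) summed to 23.7 to 1552 CPM per library. In whole tissue, fewer cells of a type and less RNA per cell cannot be told apart.

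The levels of the 36 genes in fed controls were compared as CPM per kilobase of exon (CPM per kb), which puts genes of different length on 1 scale. Apoe, the main lipid carrier released by astrocytes, stood at 890 CPM per kb, with a range of 706 to 987, and lay far above every other member. Hmgcs1, the HMG-CoA synthase that feeds mevalonate synthesis, followed at 76.3 CPM per kb. Cyp46a1, the neuronal 24-hydroxylase that turns cholesterol into an oxysterol leaving the brain, was close behind at 70.8 CPM per kb, and the ranges of the last 2 genes overlapped (71.1 to 82.4 and 65.9 to 75.5). Srebf2, which encodes the SREBP that mainly drives sterol synthesis, stood at 44.7 CPM per kb and Srebf1, encoding the SREBP tied more to fatty acid synthesis, at 19.4. Insig1 (33.8 CPM per kb) was above Insig2 (15.8) and Scap (11.3).

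Among the LXR genes, Nr1h2 (LXR beta) held 17.4 CPM per kb and Nr1h3 (LXR alpha) held 1.42, with ranges of 15.2 to 19.1 and 1.04 to 1.83. The exporter Abcg1 stood at 17.0 CPM per kb and Abca1 at 4.23. Enzymes of the mevalonate steps besides Hmgcs1 lay between 9.57 (Mvk, mevalonate kinase) and 24.4 CPM per kb (Pmvk, phosphomevalonate kinase), leaving out Fdps. Those from squalene onward ran from 3.19 (Lbr) to 36.4 CPM per kb (Fdft1, squalene synthase). The spread between fed control libraries was smallest for Sc5d, a sterol desaturase, with a coefficient of variation of 2.35%.

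Fdps, farnesyl diphosphate synthase, was listed lowest, at 0.33 CPM per kb and with 14 to 54 counts per library. Of its 1308 coding bases, 1124 (85.9%) lie under exons of the read-through gene Gm43738, and fragments over shared bases cannot be given to a single gene. Its values are therefore not a measure of the transcript, and no direction is read from them. A further 7 members share at least 10% of their exon bases or 50-base words with another gene (Acat2, Hmgcs1, Idi1, Fdft1, Tm7sf2, Lbr and Scap), so their counts are uncertain to that extent.

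**Figure D1:**
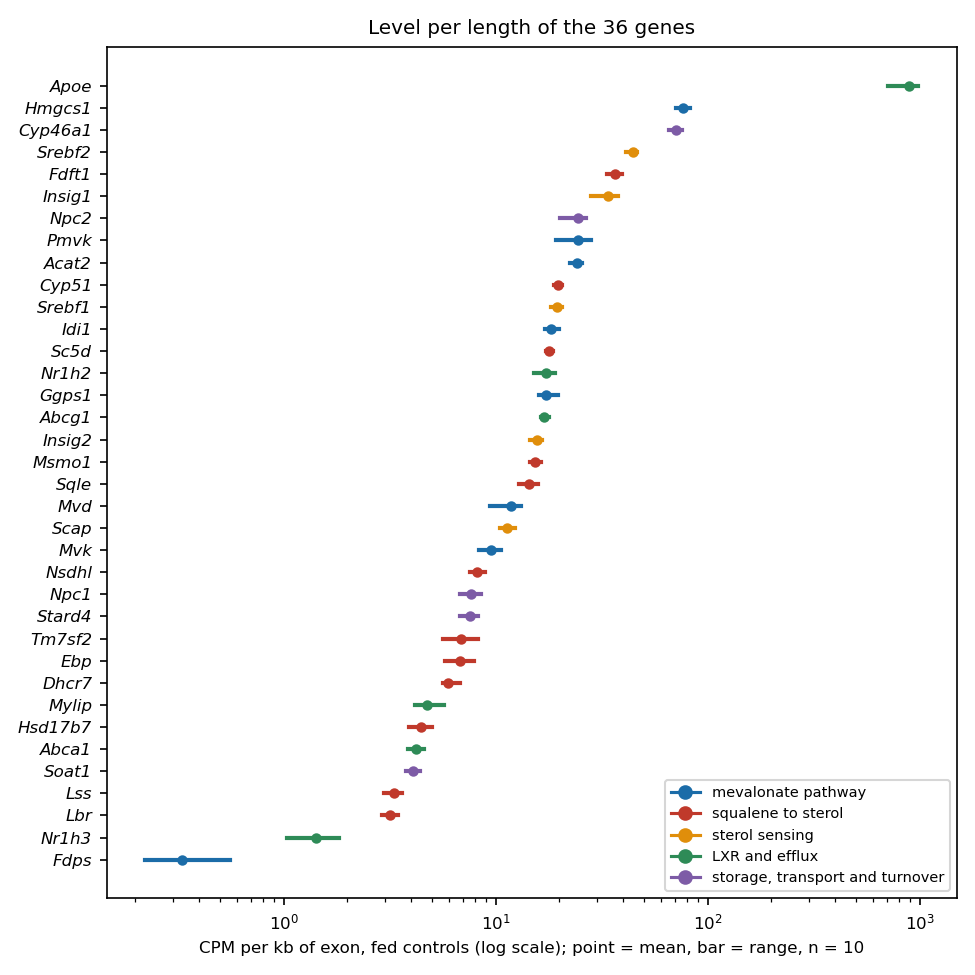
Level of each of the 36 genes in fed controls, in CPM per kb of exon on a log axis; points are means and bars the range over 10 libraries, coloured by role. Apoe at 890 stands alone at the top, and Fdps at 0.33, whose fragments are shared with a read-through gene, at the bottom.

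Promoter sequences were examined because SREBPs bind short sterol regulatory elements in many of these genes. RefSeq windows on GRCm38.p6 (300 bases, from 250 before to 50 after the transcript start) were found for 30 of the 36 members by symbol, and not for Fdps, Fdft1, Sqle, Abcg1, Stard4 and Npc1. The element TCACNCCAC, searched on both strands, occurred in 1 member, Hmgcs1, or 1 of the members' 41 windows (some members have several), and in 1.24% of all 32851 windows. Its shorter form TCACNCCA, which lies within the longer motif, occurred in 4 members (Apoe, Hmgcs1, Msmo1 and Srebf2), or 4 of the 41 windows, and in 4.36% of all windows. CCAAT, the box bound by NF-Y, a partner of SREBP, occurred in 24 of the 30 members, or 25 of the 41 windows, and in 37.4% of all windows. The E-box CACGTG, bound by clock proteins among others, occurred in 6 members (Abca1, Dhcr7, Hsd17b7, Insig1, Sc5d and Scap), or 7 of the 41 windows, and in 7.15% of all windows. These matches describe letters and not binding.

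The stretch from 250 to 51 bases before the start is shown 5′ to 3′ for 4 genes. Hmgcs1 and Cyp51 were called on fasting, Srebf2 between genotypes, and Insig1, a feedback gene, in no comparison. Capitals mark the sterol element or its shorter form, CCAAT or its reverse complement ATTGG, and CACGTG. Hmgcs1 lies at chr13:119690101-119690300 (plus strand), with TCACCCCAC at -137 to -129 from the start. The RefSeq start of Hmgcs1 used here lies upstream of the gene's first exon base in the count tables. Cyp51 lies at chr5:4104748-4104947 (minus strand) and has no match in this stretch. Srebf2 lies at chr15:82147019-82147218 (plus strand), with the shorter form at -162 to -155. Insig1 lies at chr5:28071162-28071361 (plus strand), with CACGTG at -101 to -96.
Hmgcs1: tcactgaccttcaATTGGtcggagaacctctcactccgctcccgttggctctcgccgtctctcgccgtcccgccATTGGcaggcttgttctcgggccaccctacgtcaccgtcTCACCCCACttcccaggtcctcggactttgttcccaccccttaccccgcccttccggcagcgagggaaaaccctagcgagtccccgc
Cyp51: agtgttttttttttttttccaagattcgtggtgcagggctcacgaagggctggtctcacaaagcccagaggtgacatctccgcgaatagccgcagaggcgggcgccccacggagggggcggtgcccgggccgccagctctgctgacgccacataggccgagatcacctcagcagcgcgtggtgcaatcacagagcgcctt
Srebf2: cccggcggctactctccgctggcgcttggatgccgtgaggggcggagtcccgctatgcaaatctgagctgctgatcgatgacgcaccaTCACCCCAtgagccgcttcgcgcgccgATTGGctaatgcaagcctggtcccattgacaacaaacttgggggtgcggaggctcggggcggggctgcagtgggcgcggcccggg
Insig1: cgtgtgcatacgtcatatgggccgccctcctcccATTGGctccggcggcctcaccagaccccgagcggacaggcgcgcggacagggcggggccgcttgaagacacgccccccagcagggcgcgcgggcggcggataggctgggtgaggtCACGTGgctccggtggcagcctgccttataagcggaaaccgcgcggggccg

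The first comparison asked how 16 h without food changed these genes in control mice. Only Srebf1 fell, 1 of 36 members, against 3.88% of all genes tested. Fed controls held 103 to 117 CPM of Srebf1 (median 109.7) and fasted controls 82.2 to 111 CPM (median 99.3). The fasted libraries reached lower, but the groups overlapped. The log2 fold change was -0.16 (SE 0.04, adjusted p 0.00579, edgeR's quasi-likelihood test). Within controls 1 to 5 it was -0.22, and within controls 6 to 10 it was -0.11 (adjusted p 0.273) and not called. Without the 10 libraries holding over 100 CPM of choroid plexus markers, an alternative chosen after seeing the data, it was -0.12 (adjusted p 0.184).

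None of the 20 enzymes was called in fasted controls by edgeR, 3 had an unadjusted p below 0.05, against 13.3% of all genes, and DESeq2 called 1 (Hmgcs1). Their log2 fold changes were small and mostly negative, in 18 of 19 enzymes without Fdps, with a median of -0.04, where 48.9% of all genes tested were negative. Hmgcs1 held 229.9 to 266 CPM (median 248) in fed and 216 to 250.2 CPM (median 228) in fasted controls, a log2 fold change of -0.10 (adjusted p 0.0878). It was also called without fed control replicate 2 (adjusted p 0.0460) and without fasted control replicate 1 (0.0442). The groups overlapped over much of their range. Summed over the 20 enzymes, fed controls held 1128 ± 26.7 CPM (SD, n = 10) and fasted controls 1082 ± 40.9 (SD, n = 10), with no test on the sum. Fdps adds at most 2.35 CPM to the sum in any library.

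In fasting S662D mice, 6 of 36 members were called, against 2.64% of all genes tested. Lower were 5 members (0.83% of all genes) and higher was 1 (1.8% of all genes). The 5 that fell were the mevalonate enzyme Hmgcs1, the sterol enzymes Sqle and Cyp51, the transcription factor gene Srebf1 and the sterol carrier Stard4. Lbr rose.

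Hmgcs1 (chromosome 13, 119690462 to 119708086), whose promoter is shown above, held 264, 248, 228, 242 and 242 CPM in the fed S662D replicates 1 to 5. Fasted replicates held 219, 203, 204, 214 and 229 CPM. The 2 ranges met only at their edges, between the lowest fed and the highest fasted library. The log2 fold change was -0.20 (SE 0.05, adjusted p 0.00709). It was -0.21 in the 6 libraries with the additional digit and -0.18 in the 4 without it.

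Sqle (chromosome 15, 59315077 to 59331192), squalene epoxidase, a rate-limiting step of sterol synthesis, held 87.0, 90.4, 81.4, 91.3 and 87.8 CPM in fed S662D replicates 1 to 5. In fasted replicates it held 72.2, 82.0, 70.8, 76.5 and 69.2 CPM. Only fasted replicate 2 reached the lowest fed library. It fell by 0.24 on the log2 scale (SE 0.06, adjusted p 0.00568), and the value was -0.20 with the additional digit and -0.30 without.

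Cyp51 (chromosome 5, 4081145 to 4104746), lanosterol demethylase, held 93.0, 87.9, 84.4, 84.8 and 91.6 CPM fed. Fasted S662D libraries held 83.1, 78.8, 69.6, 81.7 and 78.7 CPM, all below the fed ones. Cyp51 fell by 0.17 on the log2 scale (SE 0.05, adjusted p 0.0318), with -0.16 in libraries with the additional digit and -0.19 in those without. This call was the least stable of the 6: it was lost in 12 of 20 alternatives, 6 of which left out 1 library (fed replicate 1, 2 or 5, or fasted replicate 2, 3 or 5).

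Stard4, which carries cholesterol between membranes and is itself an SREBP target, held 42.0, 47.1, 45.3, 43.0 and 39.5 CPM in fed S662D replicates. Fasted ones held 38.0, 34.6, 36.4, 39.5 and 35.1 CPM. Fasted replicate 4 and fed replicate 5 met at 39.5 CPM. On the log2 scale the change was -0.24 (SE 0.06, adjusted p 0.0271), -0.29 with the additional digit and -0.16 without. The call was lost when fed replicate 2 or 3, or fasted replicate 2, 3 or 5, was left out.

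Srebf1 (chromosome 11, 60199089 to 60222581) fell in S662D mice as well. It held 119.6, 118, 126, 119 and 112 CPM fed and 99.0, 107, 102, 97.0 and 101 CPM fasted, with no overlap. Its log2 change was -0.23 (SE 0.05, adjusted p 0.00626), -0.24 with the additional digit and -0.21 without.

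Lbr (chromosome 1, 181815335 to 181843046) encodes a nuclear envelope protein with sterol reductase activity, and went the other way. Fed S662D libraries held 14.2, 12.95, 13.3, 14.4 and 12.2 CPM and fasted ones 16.0, 14.7, 17.3, 17.8 and 17.6 CPM. Every fasted library lay above every fed one. Lbr rose by 0.31 on the log2 scale (SE 0.08, adjusted p 0.0103), 0.30 with the additional digit and 0.35 without. The other sterol reductase of the same step, Tm7sf2, held medians of 20.2 CPM fed and 21.3 fasted and was not called.

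**Figure D2:**
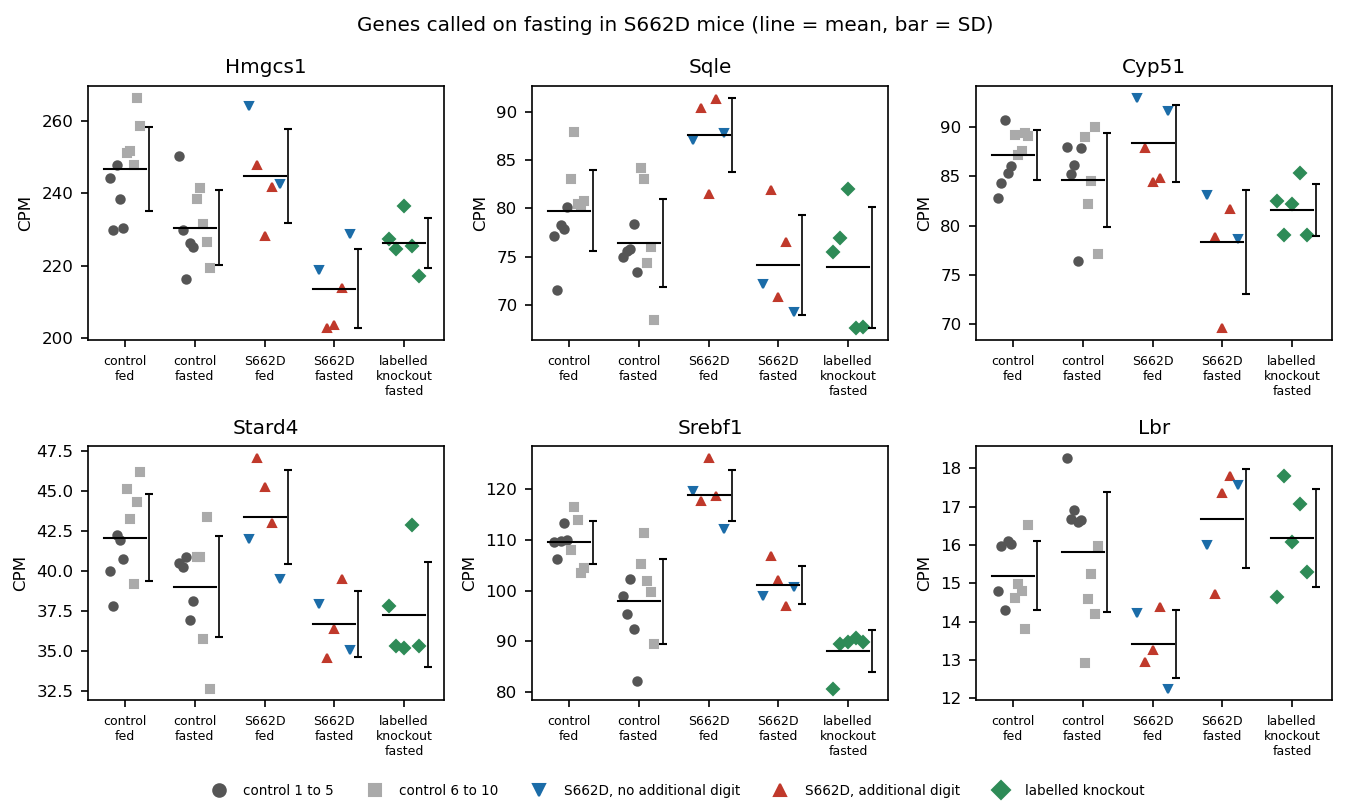
CPM per library of the 6 genes called on fasting in S662D mice, in all 5 groups; lines are means and bars SD, and symbols mark control set and additional digit. In S662D mice Srebf1 drops from 112 to 126 CPM fed to 97.0 to 107 fasted, while Lbr rises from 12.2 to 14.4 up to 14.7 to 17.8.

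Within S662D mice, the 4 libraries without the additional digit called 0 of the 6 members on fasting, where 7 of all genes were called, with 2 libraries on each side. At an unadjusted p below 0.05, 8 of the 36 members passed there, against 5.06% of all genes. All 6 kept their direction there. Without the libraries high in choroid plexus markers 2 members were called, Hmgcs1 and Srebf1. With only the S662D libraries in the fit 3 were called (Sqle, Srebf1 and Lbr). In the 6 libraries with the additional digit 4 were called (Hmgcs1, Srebf1, Stard4 and Dhcr7), where 683 of all genes were called. Dhcr7 and Sc5d were called lower as well by DESeq2 and with library size alone.

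Across the 20 enzymes in S662D mice, 3 fell, 1 rose and 16 were not called. Without Fdps, their median log2 fold change on fasting was -0.10 and 16 of 19 were negative, where 49.99% of all genes tested were. Of the 16 not called, Mvd, mevalonate decarboxylase, had the lowest log2 fold change apart from Fdps, at -0.25, with 22.2 ± 2.79 CPM fed and 18.6 ± 3.16 CPM fasted (SD, n = 5 each). The sum over the enzymes was 1044 to 1173 CPM in fed and 942 to 1061 CPM in fasted S662D libraries. In the same libraries the summed oligodendrocyte markers (9 genes, all present) went the other way, from 7768 to 9257 CPM fed to 9259 to 9951 fasted. They were 7773 to 10431 CPM in fed and 8568 to 9655 in fasted controls. Mitochondrial genes took 6.24% to 6.82% of counts in fed and 6.85% to 8.27% in fasted S662D libraries, with no overlap. In controls that share was 6.69% to 7.37% fed and 6.81% to 8.70% fasted, and the groups overlapped. The part of these markers and of the mitochondrial share in the result was not tested.

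**Figure D3:**
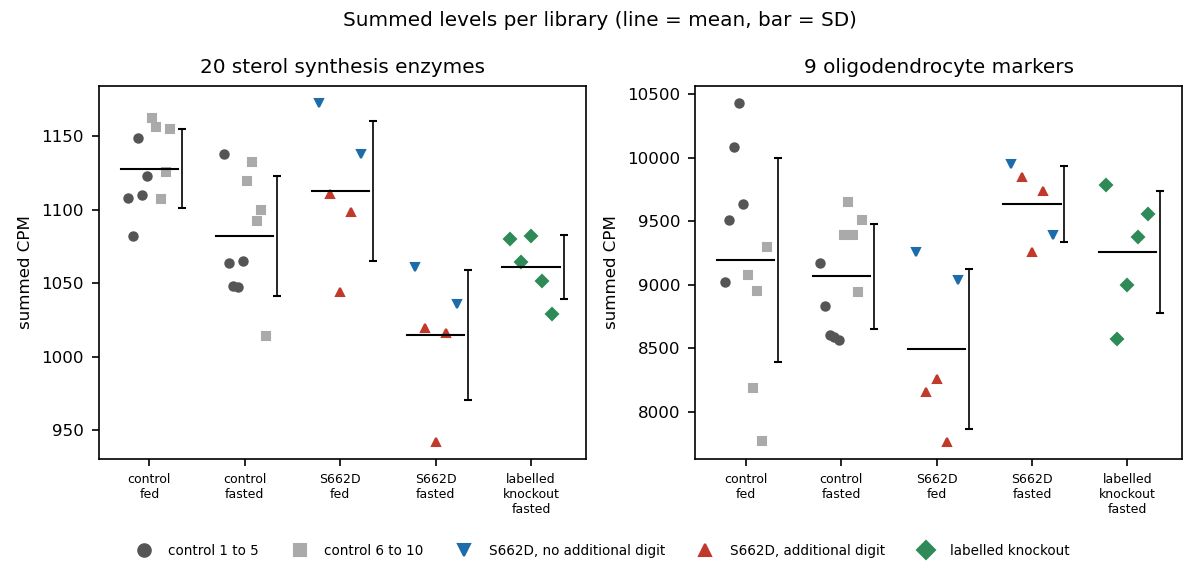
Summed CPM per library of the 20 sterol synthesis enzymes (left) and of 9 oligodendrocyte markers (right) by group; lines are means and bars SD. The group mean of the enzymes is lowest in fasted S662D libraries, whose range (942 to 1061 CPM) overlaps with those of other groups, while the oligodendrocyte markers lie above all fed S662D libraries.

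The remaining enzymes were called in none of the 7 comparisons, and are given by their range in CPM over all 35 libraries. In the mevalonate steps, Acat2, a thiolase that joins acetyl-CoA units, spanned 48.8 to 67.4 CPM, Mvk 17.3 to 32.4 and Pmvk 27.1 to 49.7. Idi1, which isomerises the isoprenoid unit, spanned 54.6 to 70.7 CPM, and Ggps1, which makes geranylgeranyl diphosphate for the non-sterol branch, 36.5 to 46.5. Past squalene, Fdft1 spanned 83.2 to 115 CPM and Lss 29.3 to 39.3. Nsdhl and Hsd17b7, which take part in removing the methyl groups at C4, spanned 18.8 to 26.2 and 17.9 to 26.4 CPM. Ebp, a sterol isomerase, spanned 11.8 to 18.6 CPM. Dhcr7 held 34.9 ± 1.74 CPM in fed and 30.5 ± 2.96 in fasted S662D libraries (SD, n = 5 each), and 34.9 ± 2.01 in fed and 32.0 ± 2.09 in fasted controls (SD, n = 10 each).

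Of the handling genes called in none of the 7 comparisons, Mylip, an LXR target that marks lipoprotein receptors for degradation, spanned 11.6 to 17.4 CPM. Soat1 spanned 31.8 to 43.3 CPM and Npc2 65.5 to 87.2. Insig2, the second of the INSIG genes, spanned 50.04 to 66.0 CPM and Scap 75.05 to 99.4. The mean of Scap was highest in fed S662D libraries, at 91.3, 92.9, 88.4, 99.4 and 90.5 CPM, against 78.3 to 91.9 (median 83.8) in fed controls, and was not called with all libraries fitted by edgeR (adjusted p 0.0565). Nr1h3 was the least abundant gene of this kind, at 2.59 to 4.61 CPM.

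No LXR or efflux gene was called on fasting in either genotype. In S662D mice 0 of 6 were called by edgeR and by DESeq2, and 0 had an unadjusted p below 0.05, against 14.3% of all genes. All 6 log2 fold changes lay between 0.01 and 0.09. In controls 0 of 6 were called and 2 had an unadjusted p below 0.05, against 13.3% of all genes, and DESeq2 called 0. Abca1 held 40.1 to 47.5 CPM (median 43.9) in fed controls and 40.7 to 55.0 CPM (median 49.6) in fasted ones. Apoe held 1510 to 2110 CPM (median 1953) fed and 1261 to 2010 CPM (median 1861) fasted.

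Of the sterol sensing genes other than Srebf1, none was called on fasting in either genotype by edgeR. Insig1, whose mRNA is induced by SREBPs, held medians of 104 CPM in both fed and fasted controls, and 98.0 and 102 CPM in fed and fasted S662D mice. Srebf2 held 205 to 231 CPM (median 226) in fed and 188 to 225 CPM (median 206) in fasted controls, a log2 fold change of -0.11. Among the alternatives run, it was called only when controls alone were fitted (adjusted p 0.0428). Npc1 and Npc2, the pair that moves cholesterol out of lysosomes, Soat1, which esterifies it, and Cyp46a1 were not called.

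Whether the fasting responses of the 2 genotypes differed was tested with an interaction term. It called 0 of 36 members and 0.0% of all genes, by edgeR and by DESeq2. At an unadjusted p below 0.05, 3 members passed (Sqle at -0.18, Cyp51 at -0.13 and Lbr at 0.26), against 6.37% of all genes. A difference between genotypes in the fasting response was therefore not shown for any member. Sqle held 71.6 to 87.9 CPM in fed and 68.5 to 84.2 CPM in fasted controls. Cyp51 held 82.9 to 90.7 CPM in fed and 76.4 to 90.0 CPM in fasted controls. Lbr held 13.8 to 16.5 CPM in fed and 12.9 to 18.3 CPM in fasted controls. The S662D values of these 3 genes are given above.

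S662D was compared with controls in the fed state. Srebf2 was the 1 member called of 36, against 4.69% of all genes. Srebf2 (chromosome 15, 82147266 to 82205376) held 205 to 231 CPM (median 226) in fed controls. Fed S662D replicates 1 to 5 held 234, 262, 257, 281 and 224 CPM. Replicates 2, 3 and 4, which carry the additional digit, lay highest, replicate 1 just above the controls and replicate 5 within their range. The log2 fold change was 0.17 (SE 0.05, adjusted p 0.0257), 0.26 with the digit and 0.04 without.

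The call of Srebf2 was lost without fed S662D replicate 2, 3 or 4, without fed control replicate 4, against controls 6 to 10 alone, and with the additional digit as a term. With that term the contrast describes mainly the 2 fed S662D libraries without the digit. Scap and Abca1 had log2 fold changes of 0.13 and 0.20 and were not called (adjusted p 0.0565 and 0.0925). Scap was called with median-of-ratios scaling (adjusted p 0.0488), with the replicate block (0.0483) and by DESeq2 (0.0243), and Abca1 when only the compared groups were fitted (0.0300). Both were called when S662D libraries with the digit alone were used, at 0.0329 and 0.00429. Sqle was called higher by DESeq2 (adjusted p 0.0478), with the replicate block (0.0420), with compared groups only (0.0473) and against controls 1 to 5 (0.0248). Npc1 was called higher by DESeq2 (0.0316), with the replicate block (0.0365), against controls 1 to 5 (0.0333) and with the digit libraries alone (0.00147). Abcg1 was called higher by DESeq2 (0.0376), with compared groups only (0.0433) and with the digit libraries alone (0.000648). The replicate block called Lbr lower (0.0268). Against controls 1 to 5, Tm7sf2 (0.0175) and Npc2 (0.0331) were called lower. In fed S662D replicates Abca1 held 43.8, 55.7, 51.3, 54.2 and 46.2 CPM, again highest in replicates 2, 3 and 4.

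In the fasted state, 4 members were called of 36, against 5.57% of all genes. Higher in S662D were Abcg1 and Npc1 (3.35% of all genes) and lower were Msmo1 and Sc5d (2.23% of all genes). With scaling by library size alone, the calls of Abcg1 and Npc1 were lost, and Msmo1, Sc5d, Hmgcs1, Lss and Cyp51 were called lower. Srebf2 was not among the 4, but some alternatives called it higher. These were median-of-ratios scaling (log2 fold change 0.15, adjusted p 0.0482), DESeq2 (0.0276) and the replicate block (0.0333). It was also called with the S662D libraries carrying the digit alone (0.24, adjusted p 0.000147).

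Abcg1 (chromosome 17, 31057698 to 31115777), which exports cholesterol to lipoprotein particles, held 64.7 to 72.9 CPM (median 67.2) in fasted controls. Fasted S662D replicates 1 to 5 held 66.6, 76.2, 85.4, 80.8 and 71.3 CPM. Replicates 2, 3 and 4 lay above all controls, and 1 and 5 within their range. Abcg1 differed by 0.16 on the log2 scale (SE 0.04, adjusted p 0.0248), 0.25 with the additional digit and 0.02 without.

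Npc1 held 75.8 to 85.4 CPM (median 81.2) in fasted controls and 85.0, 96.1, 99.1, 96.5 and 83.0 CPM in fasted S662D replicates 1 to 5. The split was the same: replicates 2, 3 and 4 above all controls, 1 and 5 within. On the log2 scale Npc1 was higher by 0.18 (SE 0.05, adjusted p 0.0184), 0.27 with the digit and 0.06 without. In fed S662D mice, where Npc1 was called only in alternatives, replicates 2, 3 and 4 held 100.2, 89.9 and 98.1 CPM. Replicates 1 and 5 held 85.3 and 84.1.

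Msmo1 (chromosome 8, 64718139 to 64733792), a C4-methylsterol oxidase, held 82.9 to 103 CPM (median 91.7) in fasted controls and 86.9, 80.4, 70.7, 83.3 and 80.9 CPM in fasted S662D replicates. The lowest S662D libraries fell below the controls and the rest overlapped with them. The log2 fold change was -0.20 (SE 0.05, adjusted p 0.0180), -0.24 with the additional digit and -0.13 without. Sc5d (chromosome 9, 42251595 to 42264256), which desaturates sterols late in the pathway, held 81.1 to 91.2 CPM (median 83.2) in fasted controls and 80.3, 73.5, 76.0, 82.0 and 77.7 CPM in fasted S662D mice. The log2 difference was -0.13 (SE 0.04, adjusted p 0.0408), -0.14 with the digit and -0.10 without. The call of Sc5d was lost in 15 of 27 alternatives.

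All 4 calls were lost without fasted S662D replicate 2, 3 or 4, against controls 6 to 10 alone, and with the additional digit as a term. The digit occurs only in S662D libraries, so with that term the contrast describes mainly those lacking it, 2 per feeding state. It is therefore not a check separate from the fit of those libraries alone, given next. With so few libraries, a lost call does not show that a difference is absent. The 4 S662D libraries without the digit called 0 of 36 members in either feeding state. There, 16 of all genes were called fed and 21 fasted. At an unadjusted p below 0.05, 1 member passed fed (4.28% of all genes) and 2 fasted (4.6% of all genes).

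**Figure D4:**
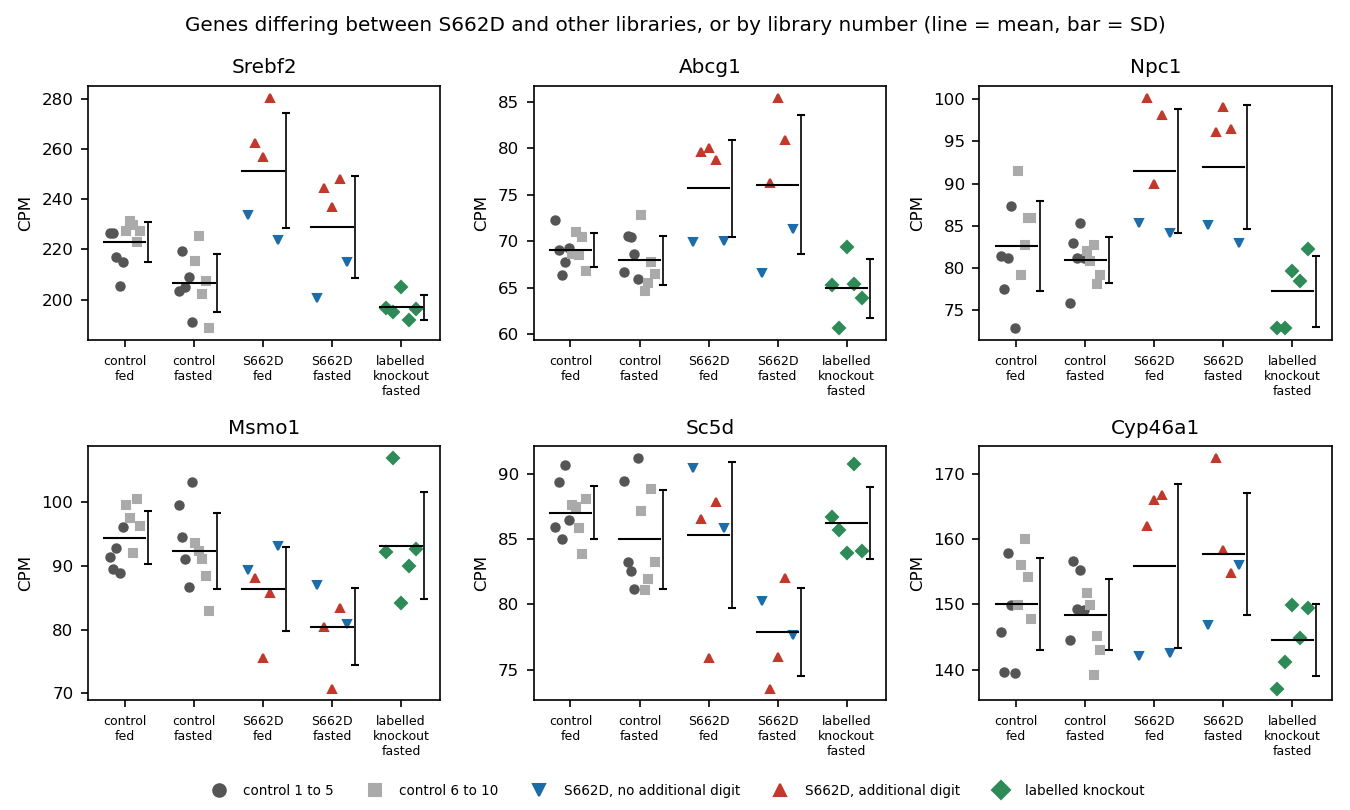
CPM per library of 6 genes that were called between S662D and other libraries or between S662D libraries with and without the additional digit; lines are means and bars SD. For Srebf2, Abcg1 and Npc1 the S662D libraries with the digit (triangles pointing up) lie above those without it, which lie near the controls.

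The S662D libraries with the additional digit were set against those without it, over both feeding states. This called 6 of 36 members, against 13.5% of all genes. Higher with the digit (8.57% of all genes) were Srebf2 (log2 fold change 0.22), Abcg1 (0.21), Npc1 (0.20) and Cyp46a1 (0.15). Lower (4.92% of all genes) were Fdft1 (-0.15) and Lss, lanosterol synthase (-0.21). Per2 itself was higher with the digit (0.24, adjusted p 0.0161). Cyp46a1 held 162, 166 and 167 CPM in fed S662D libraries with the digit and 142 and 143 without. In fasted ones it held 172, 158 and 155 CPM with the digit and 147 and 156 without, which overlapped. Fed controls spanned 139.6 to 160.0 CPM.

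Markers of other cells and tissue moved with the digit too. Summed thalamus and telencephalon markers (6 genes) were 440 to 556 CPM in fed S662D libraries with it and 362 to 381 without, and 463 to 525 against 435 to 442 in fasted ones. Endothelial markers (7 genes) were 234 to 247 against 211 to 218 CPM fed, and 220 to 255 against 191 to 217 fasted. Astrocyte markers (8 genes) were 2506 to 2687 against 2324 to 2356 CPM fed, and 2467 to 2820 against 2403 to 2412 fasted. Oligodendrocyte markers were lower with the digit when fed, at 7768 to 8262 against 9042 to 9257 CPM, and overlapped when fasted, at 9259 to 9846 against 9394 to 9951. Hypothalamic markers (11 genes) overlapped when fed, at 578 to 721 CPM with the digit against 672 to 686 without. When fasted they were lower with the digit, at 542 to 716 against 725 to 741 CPM. The mitochondrial share of counts was 6.24% to 6.52% against 6.54% to 6.82% fed, and 6.85% to 6.93% against 7.70% to 8.27% fasted. Their part in the differences of Srebf2, Abcg1, Npc1 and Cyp46a1 was not tested.

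Control replicates also differed between sets. Controls 6 to 10 against 1 to 5 called 0 members and 0.0% of all genes when fed (4 members and 13.5% of all genes at an unadjusted p below 0.05), and when fasted 3 members against 6.02% of all genes. Among the fasted, Mvd (0.41, adjusted p 0.0296), and Npc2 (0.19, adjusted p 0.0421) were higher in controls 6 to 10 and Lbr was lower (-0.22, adjusted p 0.0482). Fasting within controls 1 to 5 called 5 members, all lower (Mvd, Tm7sf2, Srebf1, Apoe and Npc2), where 1315 of all genes were called. Within controls 6 to 10 it called 0 by edgeR, where 304 of all genes were called (6 members and 18.2% of all genes at an unadjusted p below 0.05).

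The libraries labelled Per2 knockout were compared with fasted controls. No member was called by edgeR or DESeq2, against 0.0277% of all genes. At an unadjusted p below 0.05, 2 members passed, Srebf1 (-0.15) and Dhcr7, the last reductase of cholesterol synthesis (-0.12), against 6.07% of all genes. Srebf1 held 80.6, 89.5, 89.9, 90.6 and 89.9 CPM in the labelled knockout and 82.2 to 111 CPM (median 99.3) in fasted controls. Most of its libraries lay in the lower part of the control range.

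Against fasted S662D libraries, the labelled knockout differed in 6 of 36 members, against 7.34% of all genes. This comparison shares the fasted S662D libraries with the one against controls. Higher in the labelled knockout (2.61% of all genes) were Msmo1 (0.21) and Sc5d (0.15). Lower (4.72% of all genes) were Srebf1 (-0.20), Srebf2 (-0.22), Abcg1 (-0.23) and Npc1 (-0.25), with adjusted p from 0.00437 to 0.0316 over the 6. Srebf2 held 192 to 205 CPM in the labelled knockout, and 201, 245, 237, 248 and 215 CPM in fasted S662D replicates. The S662D libraries without the additional digit gave 0 calls, with log2 fold changes of -0.08 for Srebf2, -0.09 for Abcg1, -0.12 for Npc1, -0.18 for Srebf1, 0.15 for Msmo1 and 0.13 for Sc5d.

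**Figure D5:**
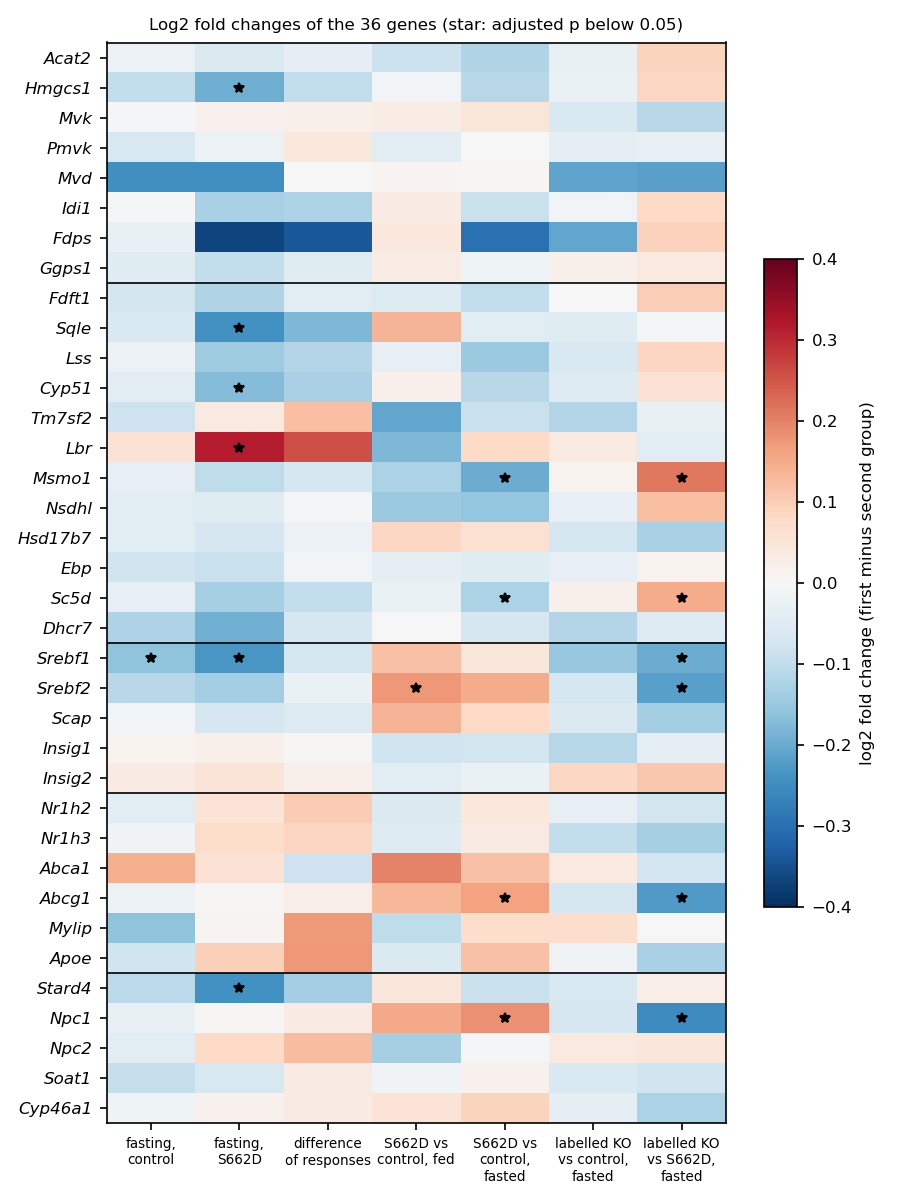
Log2 fold changes of the 36 genes (rows, ordered by role) in the 7 comparisons (columns), from -0.4 (blue) to 0.4 (red), with stars where the adjusted p was below 0.05. Fasting in S662D mice gives 6 stars and fasting in controls 1, at Srebf1.

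Genes around these pathways were counted from 4 further lists, with 42 of 45 genes tested. On fasting, 1 of 42 was called in controls (3.88% of all genes), Erlin2, an endoplasmic reticulum protein of sterol feedback, which rose by 0.16 on the log2 scale. In S662D mice 0 were called on fasting by edgeR (2.64% of all genes) and by DESeq2, and 2 had an unadjusted p below 0.05, against 14.3% of all genes. In fed S662D mice against controls 3 were called (4.69% of all genes): 2 were higher, the lipoprotein receptor genes Lrp1 (0.30) and Lrp8 (0.19), and 1 was lower, Pdss1 (-0.30), which makes the tail of coenzyme Q. In fasted mice 5 were called (5.57% of all genes): 4 were higher, Lrp1 (0.21), Icmt (0.19), a methylase of prenylated proteins, Lcat (0.25), which esterifies cholesterol on lipoproteins, and Arl4c (0.15), an LXR target. Pdss1 was again lower (-0.29). Of these, Lrp1 (0.28) and Pdss1 (-0.31) also differed between S662D libraries with and without the additional digit, where 13.5% of all genes did. The labelled knockout differed from controls in 0 of 42 by edgeR and DESeq2 (0.0277% of all genes), with 2 at an unadjusted p below 0.05 (6.07% of all genes). It differed from S662D in 4 (7.34% of all genes), all lower: Icmt, Lrp1, Lcat and Arl4c.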

How the data were processed

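Each library came with a table of unnormalized counts deposited by the authors. Per the file headers, featureCounts 2.0.1 counted fragments per gene name against GENCODE vM12 on mm10, without strand and including all alignments of multi-mapping reads. The submitters' processing notes also name STAR 2.7.10b. Counting every alignment inflates genes with near copies. Counting without strand cannot separate genes that overlap on opposite strands, and fragments over their shared bases cannot be given to a single gene.

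Genes were kept with filterByExpr by group (minimum count 10), which left 18063. A single fit took all 35 libraries, with 1 mean for each group (edgeR 4.0.16, TMM, glmQLFit with robust estimation, glmQLFTest), with Benjamini-Hochberg adjustment over all genes tested. A gene is called at an adjusted p below 0.05. The standard error came from the F statistic. CPM uses TMM-scaled library sizes. The test was checked on simulated data. Depth was 17959586 to 37027342 counts, and the fewest counts of a member besides Fdps were 48 (Nr1h3). Libraries of a group all differed by more than sampling noise (lowest chi-square per degree of freedom 2.44).

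The members and lists were chosen with earlier results of these data known. All 36 members are named. Members called in any of the 7 comparisons get values per group, fold change, SE and adjusted p, others their level and range, and genes of the further lists are named only where called. Alternatives were median-of-ratios scaling, library size alone, no filter, DESeq2 1.42.0, a replicate block, compared groups only, control and S662D subsets, the additional digit as a term, leaving out each library and, chosen after seeing the data, leaving out 10 libraries with over 100 CPM of choroid plexus markers. Marker lists for 10 tissues or cell types were summed per library: oligodendrocyte, astrocyte, neuron, microglia, endothelium, ependyma and tanycyte, choroid plexus, pituitary, hypothalamus, and thalamus and telencephalon. Promoter windows are RefSeq's on GRCm38.p6. Exon overlap was taken from the exons in the count tables, and shared words and coding bases from GENCODE vM21.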

Additional observations from a re-analysis of the deposited data

Results flagged for a closer look

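A sample was singled out where its gap to the nearest other, divided by the range of its group, passed Dixon's 95% critical value. This was so for 5 of 180 groups of a member's values, where chance flags about 1 in 20, that is 9. Mvd stood at 27.0 CPM in fed S662D replicate 1, with the others at 20.0 to 21.7. Dhcr7 stood at 39.6 CPM in fed control replicate 10, with the others at 32.9 to 36.1. Srebf1 stood at 80.6 CPM in labelled knockout replicate 1, with the others at 89.5 to 90.6. Apoe stood at 1261 CPM in fasted control replicate 5, with the others at 1702 to 2010. Soat1 stood at 34.6 CPM in fed S662D replicate 5, with the others at 39.8 to 41.3.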

How the results depend on the processing

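The number of members called for fasting in controls was 1, and 2 with DESeq2 or compared groups only, 5 within controls 1 to 5, 0 within controls 6 to 10, 0 without libraries high in choroid plexus markers, and 1 to 2 leaving out 1 library. For fasting in S662D mice it was 6, and 3 with compared groups only, 0 without the additional digit, 2 without libraries high in choroid plexus markers, and 4 to 7 leaving out 1 library. For S662D against control it was 1 fed and 4 fasted. In fed mice it was 2 with median-of-ratios scaling, 5 with DESeq2, 4 with compared groups only, 5 against controls 1 to 5, 0 against controls 6 to 10, 9 with S662D libraries carrying the digit, 0 with those lacking it, 0 with the digit as a term, and 0 to 5 leaving out 1 library. In fasted mice it was 1 with compared groups only, 1 against controls 1 to 5, 0 against controls 6 to 10, 10 with the digit, 0 without it, 0 with it as a term, 2 without libraries high in choroid plexus markers, and 0 to 8 leaving out 1 library. For the labelled knockout against S662D it was 6, and 2 with compared groups only, 0 without the digit, 0 with it as a term, and 4 to 7 leaving out 1 library. The interaction and the labelled knockout against control gave 0 members in every alternative run. The cause of these changes was not tested. The digit as a term and the S662D libraries lacking it are not separate checks, since only S662D libraries carry the digit.

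Replicate numbers did not pair the samples: of 55 pairs with the same number, 15 correlated above 0.1 (range -0.33 to 0.339) and 11 correlated best with their own number. With the replicate number as a block the counts were 1 and 5 for fasting in controls and S662D, 5 and 5 for S662D against control fed and fasted, and 6 for the labelled knockout against S662D. Of the single called genes under all alternatives, with Per2 counted among them, 372 values kept their call, 106 lost it and 0 changed sign. Per2, not a member, kept its call in all 27 alternatives each of S662D against control, fed and fasted. It also did so in all 20 of the labelled knockout against S662D, so all 106 losses fell on members. Over all genes, 2436 were called between S662D libraries with and without the digit. With library size alone, the share of called genes that were higher moved from 68.5% to 44.4% for fasting in S662D mice, from 60.1% to 25.3% for S662D against control fasted, and from 35.6% to 50.1% for the labelled knockout against S662D. Depth was lowest for Nr1h3 (48 to 115 counts per library) and Fdps (14 to 54), which have the widest spread between fed controls.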
